A study of Mus musculus with 14 samples.

Results

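The mouse Iroquois homeobox genes Irx1, Irx2, Irx3, Irx4, Irx5 and Irx6 were examined in a list of H3K27me3 sites from fibroblasts. The 6 genes were taken by name as the Iroquois family, with earlier results of these data known, and all 6 were found among 21938 annotated protein-coding genes. They lie in 2 clusters of 3, Irx1-Irx2-Irx4 on chromosome 13 and Irx3-Irx5-Irx6 on chromosome 8. By its name the list gives the peaks of all samples of a first H3K27me3 experiment. A second experiment of the study is not used here. The list holds 153983 sites, each with a chromosome, a start and an end.

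The mark was measured by ChIP-seq in iMEF cells, immortalized mouse embryonic fibroblasts, to ask whether it changes when ASH2L is removed from cells. ASH2L is a subunit of the KMT2 complexes, which methylate lysine 4 of histone H3. The 12 H3K27me3 libraries formed 6 groups of 2 replicates, untreated control cells and cells exposed to dTAG-13 for 30 min, 2 h, 4 h, 8 h or 16 h, and 2 libraries of input chromatin came from the control and the 16 h group. All groups shared the same genetic background, in which exon 4 of both floxed Ash2l alleles had been deleted by Cre-ER and the cells lived on human ASH2L fused to the tag FKBP-F36V (FKBP-HA2-ASH2L), introduced with a lentiviral vector. dTAG-13 links this tag to an E3 ubiquitin ligase, and the fusion protein is degraded. The study worked mainly with 1 such clone, NG3, and the labels do not name the clone of each library. Because the list carries no value per library, control and treated cells are not compared here, no difference described here has a replicate error or a test, and the read depth behind a site is unknown. A position without a listed site is a position where none was called, which does not show that the mark was absent. The list joins control and treated libraries, so a listed site may have been called in treated cells alone. Whether the cells carry fibroblast markers cannot be read from a list of positions.

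Iroquois proteins are transcription factors of the TALE homeobox class, named for a loop of extra amino acids in the homeodomain. They pattern the neural tube, heart, limb, kidney and retina, and they arose as clusters by duplication, so that Irx1 is the paralogue of Irx3, Irx2 of Irx5, and Irx4 of Irx6. H3K27me3 denotes histone H3 trimethylated at lysine 27. It is set by Polycomb repressive complex 2, and in differentiated cells it often lies in broad domains over CpG-rich promoters of developmental regulators that are not in use.

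CpG-rich start regions with and without a site are shown first, since the Irx genes differed there. RefSeq promoter sequences of 300 bp (250 bp before and 50 bp after the start, GRCm38.p6) were at hand for 3 of the 6 genes, Irx2, Irx3 and Irx4. They were also at hand for the noncoding neighbours Crnde and Irx3os. The dinucleotide CG, which reads the same on both strands, was searched and is written in capitals. Irx2 (chr13:72628570-72628869, plus strand) and Irx4 (chr13:73260247-73260546, plus strand) lay under a site over all 300 bp. The promoter of Crnde (chr8:92356071-92356370, minus strand), which starts 1505 bp from the start of Irx5, had 0 bp under a site.
Irx2: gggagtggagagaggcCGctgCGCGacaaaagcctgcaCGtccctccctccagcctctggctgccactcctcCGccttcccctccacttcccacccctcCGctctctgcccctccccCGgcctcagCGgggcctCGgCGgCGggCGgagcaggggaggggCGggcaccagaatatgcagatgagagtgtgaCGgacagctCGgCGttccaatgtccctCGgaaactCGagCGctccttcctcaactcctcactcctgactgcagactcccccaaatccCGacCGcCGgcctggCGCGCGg
Irx4: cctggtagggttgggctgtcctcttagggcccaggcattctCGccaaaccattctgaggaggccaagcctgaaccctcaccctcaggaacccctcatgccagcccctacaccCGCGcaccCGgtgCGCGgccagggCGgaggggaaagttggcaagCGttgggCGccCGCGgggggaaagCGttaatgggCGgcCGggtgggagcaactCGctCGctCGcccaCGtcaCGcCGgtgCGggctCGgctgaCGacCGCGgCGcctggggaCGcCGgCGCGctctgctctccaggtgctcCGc
Crnde: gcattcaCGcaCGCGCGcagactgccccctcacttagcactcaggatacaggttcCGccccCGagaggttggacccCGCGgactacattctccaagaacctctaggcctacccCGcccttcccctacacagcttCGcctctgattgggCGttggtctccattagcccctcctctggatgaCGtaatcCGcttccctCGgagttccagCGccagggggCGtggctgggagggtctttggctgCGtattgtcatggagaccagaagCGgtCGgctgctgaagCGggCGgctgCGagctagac
The Irx2 window held 25 CG and 18.4% of all 32851 RefSeq promoters had as many or more. The Irx4 window held 31 (10.6% of promoters had as many) and the Crnde window 22 (23.1%), against a median of 7. All 3 windows are thus CG-dense, and the one without a site had nearly as many CG as that of Irx2. The RefSeq window of Irx3 (chr8:91801605-91801904, minus strand) lies inside the first exon of the GENCODE transcripts and is not printed. It held 14 CG (36.3%) and had 0 bp under a site. The RefSeq window of Irx3os, a noncoding gene antisense to Irx3, held 6 CG (56.4%) and also had 0 bp under a site. Both windows under a site thus held more CG than each of the windows without one. GENCODE places the outer start of Irx3os elsewhere, at base 91800415 of chromosome 8, where a site does lie.

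Of the 6 Irx genes, 4 had a site within 1 kb of an annotated start, namely Irx1, Irx2, Irx4 and Irx6. Among all protein-coding genes the share was 31.5%. Irx3 and Irx5, neighbours in the chromosome 8 cluster, had none. In the same 4 genes the site at the start was at least 2 kb wide, which held for 16.1% of all protein-coding genes. At 3 of them (Irx1, Irx2, Irx4) it was at least 10 kb wide, against 3.82% of all genes. The windows of 1 kb around every start were covered throughout in 4 of 6 Irx genes and in 5.44% of all genes. At least 50% of the gene body was covered in the same 4 genes and in 9.35% of all genes. The median body coverage of the 6 genes was 100%, while over all genes the median was 0% and the mean 11.2%. With 6 members these shares describe the family and were not tested.

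The Irx genes were thus either wholly under a site or had their start free of one. Body coverage was 100% at Irx1, Irx2, Irx4 and Irx6, 47.7% at Irx3 and 3.73% at Irx5. The values of a gene take in every annotated transcript, so single transcripts of the covered genes add no further evidence. Those transcripts, 3 of Irx1, 5 of Irx2, 2 of Irx4 and 2 of Irx6, had 100% of their start windows and of their length under a site. Both transcripts of Irx3 and both of Irx5 had 0% of their start windows under a site. The position of the sites around each start is drawn in the map of 30 kb on either side.

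**Figure D1:**
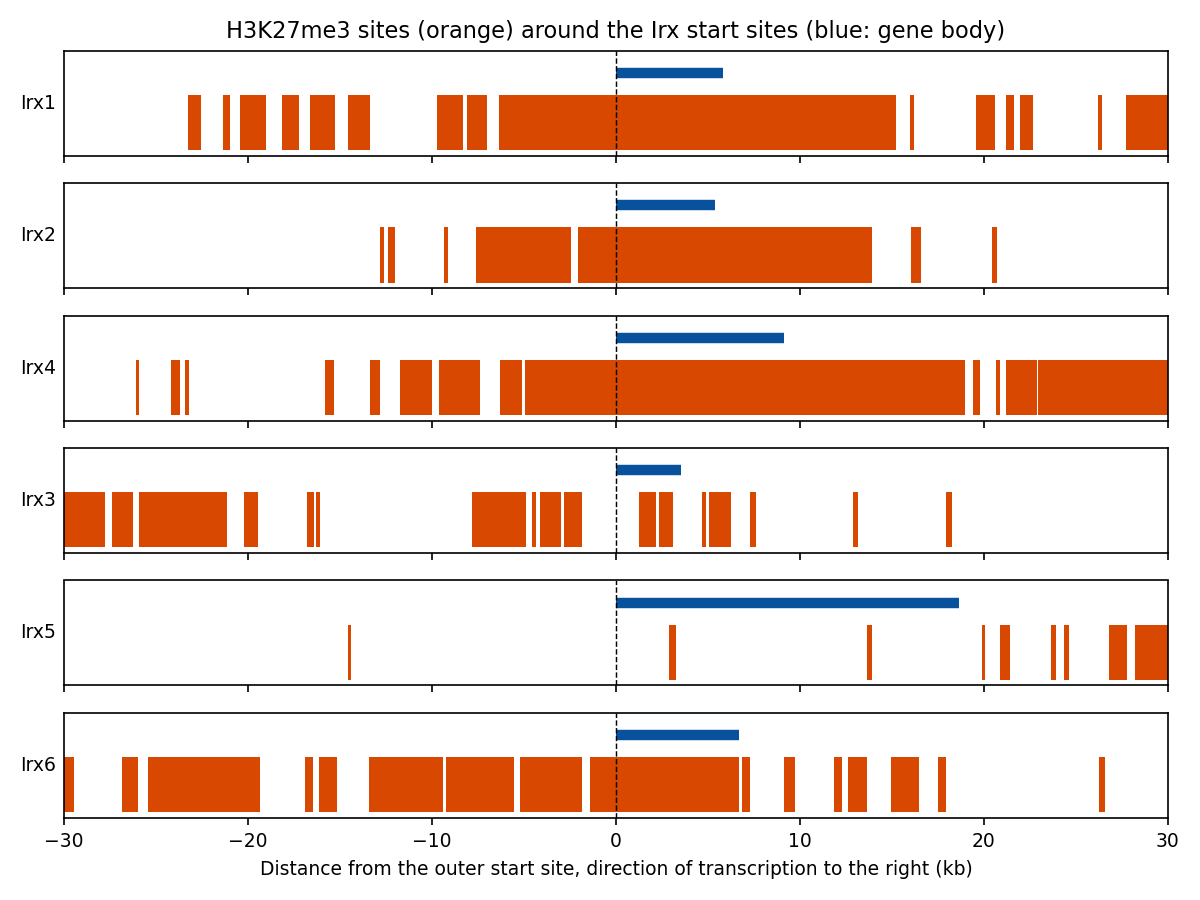
H3K27me3 sites (orange) from 30 kb before to 30 kb after the outer start of each Irx gene, with transcription to the right and the gene body in blue; the horizontal axis is distance in kb. A single site runs over the start and the whole body of Irx1, Irx2, Irx4 and Irx6, while the start of Irx3 lies in a gap between sites and Irx5 has 2 short sites in its body.

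In the chromosome 13 cluster each gene carried a single broad site. Irx4 (ENSMUSG00000021604, chr13:73260479-73269608, plus strand), known from the ventricle of the heart, had the widest of any Irx gene. The site spanned chr13:73255512-73279432 and was 23921 bp wide, reaching 4967 bp upstream and 18953 bp downstream of the start. Counting Irx4 itself, 151 genes (0.688%) had a site as wide over their outer start. With sites closer than 1 kb joined, the domain widened to 45835 bp and ended 39551 bp downstream, well beyond the gene's own length of 9130 bp. The sites thus extended much farther on the 3′ side than on the 5′ side.

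Irx1 (ENSMUSG00000060969, chr13:71957921-71963723, minus strand), which acts in limb, lung and neural patterning, lay under a site of 21579 bp at chr13:71948507-71970085. This site reached 6362 bp upstream and 15216 bp downstream of the start, and 183 genes (0.834%) had one as wide. Irx2 (ENSMUSG00000001504, chr13:72628820-72634198, plus strand) is expressed with Irx1 in many tissues. Its site at chr13:72626736-72642748 was 16013 bp wide, with 2084 bp upstream and 13928 bp downstream. A separate site of 5160 bp (chr13:72621199-72626358) lay just before it, and with sites closer than 1 kb joined they formed a domain of 21550 bp. The noncoding gene Gm20554 starts 256 bp from Irx2 on the other strand and lay under the same site, so the list cannot assign the site to either gene. The sites on Irx1, Irx4 and Irx6 likewise overlapped a further annotated gene, Gm40999, Gm48000 and Gm45505 respectively.

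At Irx6 (ENSMUSG00000031738, chr8:92674288-92680956, plus strand), a gene active in retinal bipolar cells, the site was narrower. It spanned chr8:92672860-92680984 and was 8125 bp wide, ending shortly after the annotated gene. In total 925 genes (4.22%) had a site on their start as wide. The site reached 1428 bp upstream and 6696 bp downstream, and upstream of it stood further sites. With sites closer than 1 kb joined, the domain was 20695 bp wide and reached 13410 bp upstream, against 7284 bp downstream. Of the 4 covered genes, Irx6 had the only joined domain that lay mostly on the 5′ side.

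Irx3 (ENSMUSG00000031734, chr8:91798525-91802067, minus strand), a regulator of limb and neural tube patterning that is also studied for its part in adipose tissue, had sites on both sides of a start without one. Its outer start lay in a stretch of 3084 bp without a site (chr8:91800836-91803919). The nearest site began 1853 bp upstream and 1232 bp downstream. Inside the gene were sites of 735 bp (chr8:91798970-91799704) and 955 bp (chr8:91799881-91800835), both narrower than any site on the start of the covered genes. They covered 37.6% of exon bases, 66.3% of coding bases and 83.5% of intron bases. Within 10 kb on either side 44.0% of bases were under sites, more than at 89.6% of protein-coding genes. So sites were called in the surroundings of Irx3 but not in the 1 kb on either side of its start. With the single RefSeq start of Irx3, 9.10% of the window lay under a site. With sites closer than 5 kb joined, the start windows of Irx3 rose to 100%, while those of Irx5 were still at 0%. The antisense gene Irx3os overlaps Irx3 and starts 1652 bp from the start of Irx3. Its start windows were 33.1% covered and its body 46.9%, by sites that are partly those of Irx3.

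Irx5 (ENSMUSG00000031737, chr8:92357625-92376286, plus strand), which acts in cardiac repolarization and in retinal bipolar cells, was sparsely covered compared with the other Irx genes. Its start lay in a stretch of 17273 bp without a site (chr8:92343236-92360508), which also held the start of Crnde. This stretch had 0 unknown bases and 13.0% of it was annotated as repeat. The nearest site stood 14390 bp upstream, and the first one downstream began 2884 bp from the start. The 2 sites in the body were 373 bp (chr8:92360509-92360881) and 323 bp wide (chr8:92371248-92371570). The longer transcript, Irx5-202, spans 18662 bp, and the shorter, Irx5-201, spans 3708 bp, of which 10.1% was covered. Within 10 kb on either side 1.86% of bases were under sites, against a median of 1.16% and a mean of 12.5% over all genes. This was more than at 54.9% of protein-coding genes, and its body coverage of 3.73% was more than at 72.4%. Irx5 was thus the Irx gene with the lowest coverage on each of these measures of the body and the surroundings. Crnde, a long noncoding RNA gene transcribed away from Irx5, had 0% of its start windows and 0.668% of its body under sites.

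Some paralogues differed in the list and others were alike. Irx1 was wholly covered and its paralogue Irx3 was not, with 94.3% against 44.0% of bases covered within 10 kb of the start. Irx2 and Irx5 stood farthest apart, at 87.2% and 1.86%. Irx4 and Irx6 were alike, at 92.0% and 84.0%. All 6 genes had a CpG-rich start region (GC of at least 50% and an observed-to-expected CpG ratio of at least 0.6 in the 500 bp on either side). The share of all protein-coding genes with such a start was not computed, so this count is not read as a trait of the family. GC content was 70.3% at Irx1, 73.6% at Irx2, 60.7% at Irx3, 66.4% at Irx4, 66.9% at Irx5 and 64.6% at Irx6. The start of Irx5 was thus richer in GC than those of Irx4 and Irx6, both of which lay under a site. The observed-to-expected ratio was 0.755 at Irx5, above 0.643 at Irx3 and 0.617 at Irx6 and below 0.810 at Irx4, 0.898 at Irx1 and 0.917 at Irx2.

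The coverage by distance from the start separated the genes further. From the start to 10 kb downstream, Irx1, Irx2 and Irx4 were covered throughout. Between 10 and 20 kb downstream they fell to 58.9%, 44.5% and 93.3%. Beyond 20 kb the genes of chromosome 13 diverged, since Irx4 still had 71.0% covered between 20 and 50 kb downstream, Irx1 39.9% and Irx2 0.777%. Upstream, the same 3 genes had between 0% and 7.59% covered from 20 to 50 kb, below the mean of 11.2% over all protein-coding genes. At Irx3 coverage neither rose nor fell steadily with distance. It was 0% within 1 kb on both sides. Upstream it reached 76.8% from 2 to 5 kb, was 11.6% from 10 to 20 kb and 51.7% from 20 to 50 kb. Downstream it was 76.9% from 1 to 2 kb, 6.73% from 10 to 20 kb, 8.28% from 20 to 50 kb and 66.7% from 50 to 100 kb. Stretches of high and low coverage thus alternated on both sides of Irx3. Irx5 had at most 12.4% in any bin within 20 kb, but 28.2% from 20 to 50 kb and 41.1% from 50 to 100 kb downstream.

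**Figure D2:**
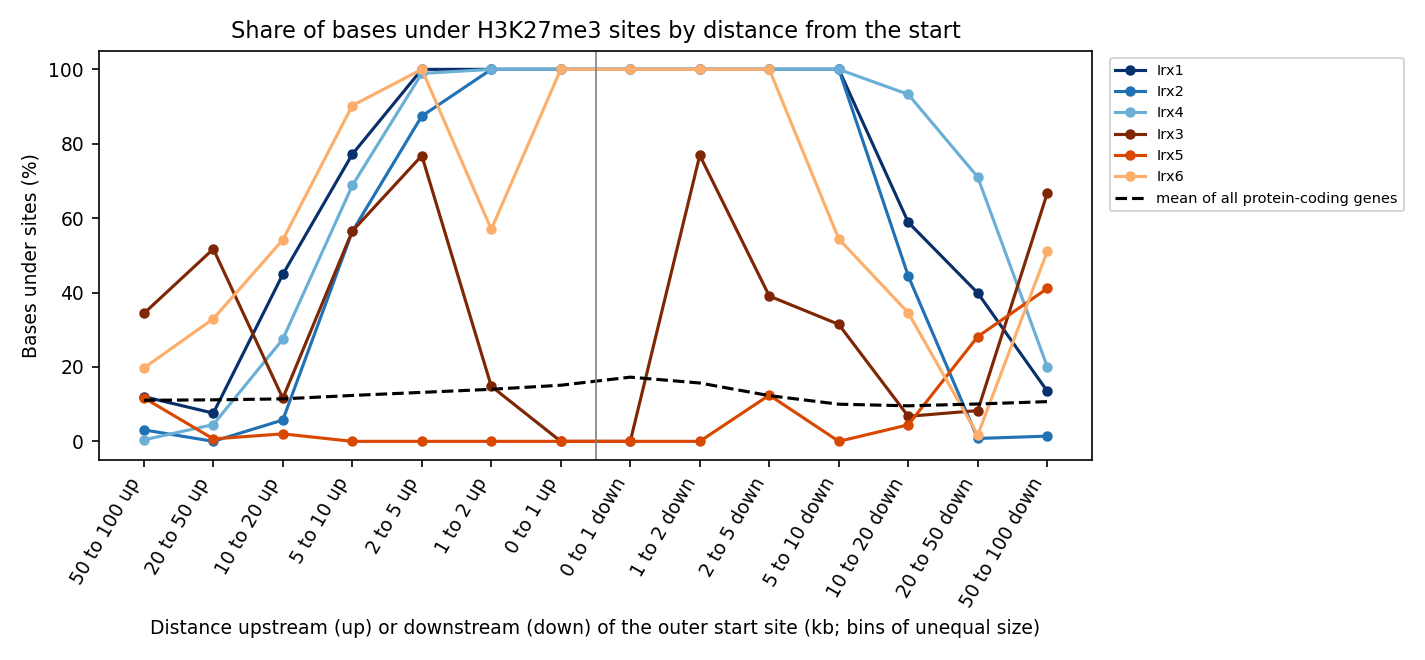
Share of bases under H3K27me3 sites (vertical axis, %) in bins of distance upstream and downstream of the outer start (horizontal axis, kb, bins of unequal size), with a line for each Irx gene and a dashed line for the mean of all 21938 protein-coding genes. Irx1, Irx2, Irx4 and Irx6 are at 100% next to the start, and Irx3 and Irx5 are at 0% there.

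The clusters differed in where their sites lay. From the first to the last base of its genes, the Irx1-Irx2-Irx4 cluster (chr13:71957921-73269608) was 1312 kb long and held 117 sites, which covered 117.2 kb or 8.93%. The Irx3-Irx5-Irx6 cluster (chr8:91798525-92680956) was shorter, at 882.4 kb, but held 239 sites covering 222.1 kb or 25.2%. For comparison, 5.93% of the assembled chromosomes lay under sites. The density was 89.2 sites per Mb in the first cluster and 270.8 per Mb in the second. Coverage of the second was 2.82 times that of the first, and this ratio lay between 2.54 and 3.36 when sites were joined or narrow sites removed. It was smaller with 100 kb added on each side, where the clusters were 13.0% and 27.4% covered. The cluster with the start-free genes was therefore the more densely marked of the pair.

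Site widths were also distributed differently. In the chromosome 13 cluster the 3 sites of at least 10 kb, each on the start of an Irx gene, made up 45.1% of the summed length of all sites touching it. The chromosome 8 cluster had 0 sites of at least 10 kb. Its widest sites were the one on Irx6 and sites of 6101 bp (chr8:92648839-92654939) and 5567 bp (chr8:92416386-92421952), which lay between Irx5 and Irx6 and touched no annotated gene. Sites of 2 to 5 kb made up 30.6% of the summed length on chromosome 8 and 6.80% on chromosome 13. The median width was 425 bp on chromosome 13 and 512 bp on chromosome 8, close to the 455 bp of the whole list. Narrow sites differed in number too. Sites under 500 bp numbered 118 on chromosome 8 and 69 on the longer chromosome 13 cluster, and sites of 500 to 1000 bp numbered 59 and 20.

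On chromosome 13 the covered bases gathered near the starts. The parts of the cluster within 20 kb of a start made up 7.24% of its length and held 52.8% of its covered bases. There 65.2% of bases were covered, against 4.54% in the rest of the cluster, which is below the 5.93% of the assembled chromosomes. On chromosome 8 the corresponding parts made up 10.2% of the length and held 13.7% of the covered bases. Coverage there was 33.6%, against 24.2% in the rest. The mean on chromosome 8 joins unlike genes, since within 20 kb on either side of the start 64.2% was covered at Irx6, 26.6% at Irx3 and 2.54% at Irx5. The corresponding values on chromosome 13 were 73.1% at Irx1, 56.2% at Irx2 and 76.2% at Irx4, so Irx6 lay in the range of the chromosome 13 genes. The longest stretch without a site was 94.6 kb on chromosome 13 (chr13:72402050-72496642, between Irx1 and Irx2) and 30.7 kb on chromosome 8.

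The gaps between Irx genes, which hold no other protein-coding gene, were set against all 2841 gaps of at least 100 kb between neighbouring protein-coding genes. Their median coverage was 1.06% and their 90th percentile 22.4%. The gap of 665.1 kb between Irx1 and Irx2 was 8.72% covered, more than 78.8% of these gaps. That of 626.3 kb between Irx2 and Irx4 was 6.21% covered (more than 74.8%). On chromosome 8 the values were 21.4% for the 555.6 kb from Irx3 to Irx5 (more than 89.5%) and 31.5% for the 298.0 kb from Irx5 to Irx6 (more than 93.3%). All 4 gaps were above the median, and only that between Irx5 and Irx6 was past the 90th percentile. The coverage of a gap includes the ends of the broad sites that begin on the neighbouring genes.

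Other genes inside the clusters were noncoding or pseudogenes. Of 10 in the chromosome 13 cluster, 2 had a site on a start, Gm20554 and D730050B12Rik, a long noncoding RNA gene with a site of 1584 bp. Of 14 in the chromosome 8 cluster, 5 had a site on a start (Irx3os, Gm28511, Gm36670, Gm36843 and Gm45332), the widest being 2725 bp at Gm28511. Of all 33475 annotated genes that are not protein-coding, 11% had a site on a start. Within 1 kb of a start the counts were 3 of 10 and 8 of 14, against 19.3% of such genes. These genes were not tested as a group, and some share sites with an Irx gene.

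The sites continued past both clusters, but of the genes nearest on each side Adamts16 alone had a site of at least 2 kb at its start. The gap of 50.2 kb between Irx4 and Ndufs6, a subunit of mitochondrial complex I, was 64.6% covered. Yet Ndufs6 and its neighbour Mrpl36, a mitochondrial ribosomal protein gene, had 0% of their start windows and bodies under sites. On the other side of the cluster the gap of 1116 kb from Adamts16 to Irx1 was 16.4% covered. Adamts16, a secreted metalloprotease gene, had a site of 9906 bp over its start, with its start windows wholly and its body 2.94% covered. Beyond it Ice1, a gene of the little elongation complex, had 1 site of 200 bp in its start windows and 14.2% of its body covered.

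Next to Irx3, the gap of 130.1 kb to Fto was 41.7% covered, more than 95.8% of the gaps of at least 100 kb. It held a site of 10005 bp (chr8:91728853-91738857), wider than any inside the cluster. Fto encodes an RNA demethylase, and its introns are known to hold regulatory elements of Irx3. Its body of 354915 bp held 9 sites and was 0.854% covered, with 0 in its start windows. Rpgrip1l, a cilium gene, had 0.271% of its body covered. Beyond Irx6 the gap of 146.3 kb to Mmp2 was 26.3% covered, while Mmp2, a matrix metalloprotease gene, had 0.765% of its body and Lpcat2, a lysophospholipid acyltransferase gene, 0% under sites. None of Fto, Rpgrip1l, Mmp2 and Lpcat2 had a site in its start windows.

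Stretches beside each cluster and as long as it were 14.2% and 20.4% covered on chromosome 13 and 9.03% and 18.1% on chromosome 8. At that length the chromosome 13 cluster was less covered than either of its flanks, and the chromosome 8 cluster more than either. The flank of 9.03% held a stretch of 306.6 kb without a site. The adjacent 100 kb were 31.0% and 47.6% covered on chromosome 13 and 41.7% and 33.1% on chromosome 8. Both clusters were thus less covered than the 100 kb on each of their sides. The flanks begin at the outermost Irx gene and include parts of the sites on Irx1, Irx4 and Irx6.

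CpG-rich sequence was compared with the rest in bins of 1 kb (GC of at least 50% and an observed-to-expected CpG ratio of at least 0.6). Of 16210 such bins on the assembled chromosomes, 20.0% had at least 50% of their bases under sites, against 5.60% of 2630843 other bins. In the chromosome 13 cluster all 11 CpG-rich bins were covered throughout, and 7.08% of the other 1300 bins were covered for at least 50%. In the chromosome 8 cluster 5 of 13 CpG-rich bins (38.5%) and 23.0% of 868 other bins reached this level. CpG-rich and other bins thus stood far apart on chromosome 13 and closer together on chromosome 8. The 11 bins on chromosome 13 all lay within 10 kb of an Irx start. They lay under the broad sites described above or the site just before Irx2, so they are not independent observations. Of the 13 on chromosome 8, 7 were neighbours near the start of Irx5.

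Within 10 kb of a start, the covered genes had 3 of 3 (Irx1), 5 of 5 (Irx2), 3 of 3 (Irx4) and 1 of 1 (Irx6) CpG-rich bins at least 50% covered. At Irx3 it was 3 of 4, the exception being the bin just downstream of the start, which had 0 bp under a site. Irx5 had the most CpG-rich bins of any Irx gene, 7, of which 0 reached this level and 6 had no site.

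**Figure D3:**
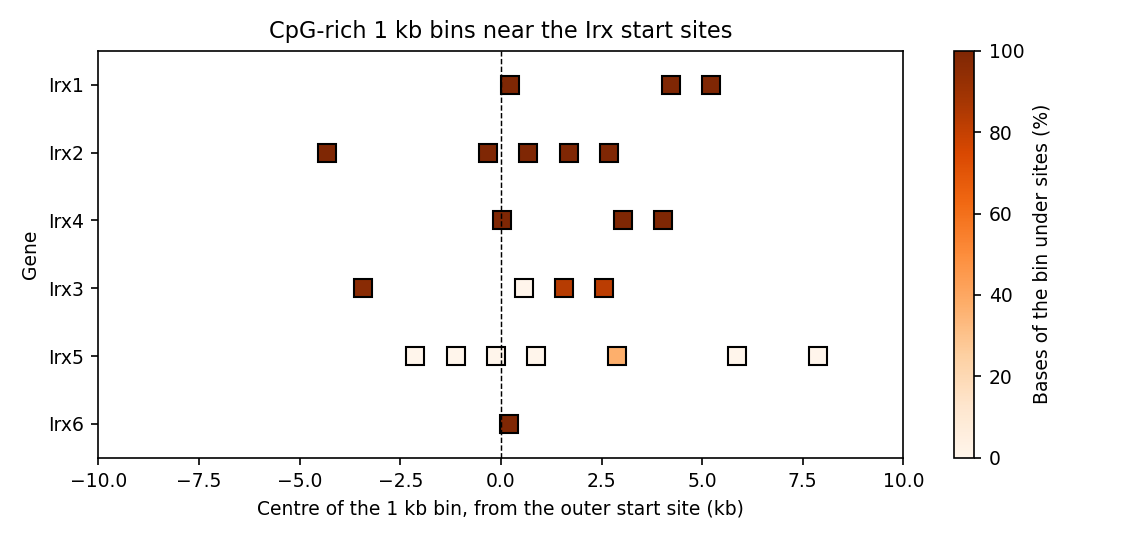
CpG-rich bins of 1 kb within 10 kb of the outer start of each Irx gene, placed by the distance of the bin's centre from the start (kb, positive downstream) and coloured by the share of the bin under H3K27me3 sites (%). Bins at Irx1, Irx2, Irx4 and Irx6 are fully covered, the bin nearest the start of Irx3 and 6 of 7 bins at Irx5 are at 0%.

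A list of 11 other TALE homeobox genes (Meis1, Meis2, Meis3, Pbx2, Pbx3, Pbx4, Pknox1, Pknox2, Tgif1, Tgif2 and Mkx), many of which encode DNA-binding partners of other homeobox proteins, held no broad site at a start. Of these 11, 4 had a site within 1 kb of a start, the same number as among the 6 Irx genes. Among all protein-coding genes the share was 31.5%. Their widest sites there were 438 bp at Meis1, 283 bp at Pbx2, 1432 bp at Pknox2 and 550 bp at Tgif1. None of the 11 had a site of at least 2 kb at a start or a body covered for at least 50%. These held for 16.1% and 9.35% of all protein-coding genes, and a site of at least 10 kb at a start for 3.82%. The counts of the 11 genes thus lay near the shares over all genes. Their median body coverage was 0.902%, and the highest was 20.0% at Pknox2, which had 6 sites in its start windows. Irx5, at 3.73%, lay within their range of 0% to 20.0%, and Irx3 lay above it. The start region was CpG-rich in 8 of the 11, a count that likewise has no share over all genes beside it. Among them was Pknox1, which had no site there. It held 125 CpG in the 500 bp on either side of its start, against 124 at Irx2. These lists were chosen with results of the data known and the difference was not tested.

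**Figure D4:**
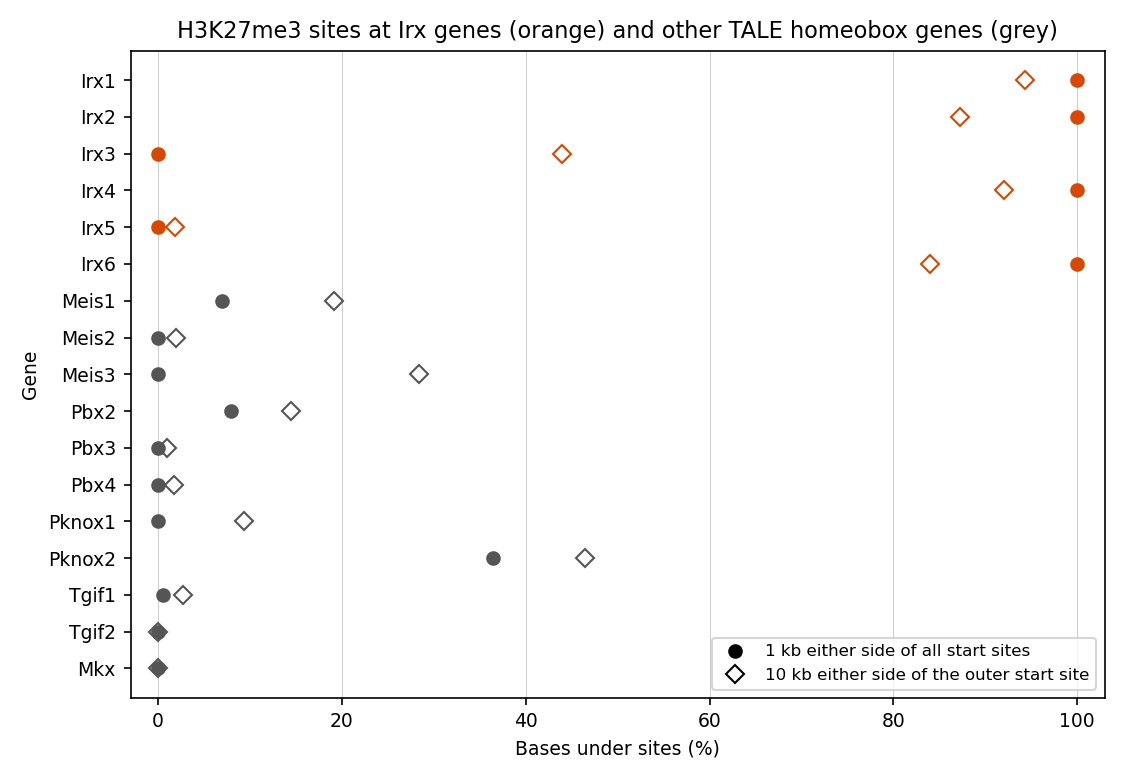
Share of bases under H3K27me3 sites (horizontal axis, %) within 1 kb of all starts (filled circles) and within 10 kb of the outer start (open diamonds) for the 6 Irx genes (orange) and 11 other TALE homeobox genes (grey). The Irx genes lie at 100% or at 0% in the 1 kb windows, while the highest of the other genes is Pknox2 at 36.4%.

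Other homeobox clusters, which were much shorter, ranged from sparse to nearly full. Between first and last gene, 8.10% was covered in Hoxa (105.3 kb), 97.5% in Hoxb (173.9 kb), 99.5% in Hoxc (115.8 kb) and 45.6% in Hoxd (96.8 kb). Of the Dlx pairs, Dlx3-Dlx4 was 93.5% covered, Dlx1-Dlx2 5.54% and Dlx5-Dlx6 8.95%. Neither Irx cluster as a whole approached Hoxb, Hoxc or Dlx3-Dlx4. The summed bodies of the 3 Irx genes alone were 100% covered on chromosome 13 and 31.4% on chromosome 8. The bodies of the Hox and Dlx genes alone are not given here, so these values have no counterpart.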

How the data were processed

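H3K27me3 ChIP-seq was performed by the authors in iMEF cells (12 libraries in 6 groups of 2, and 2 input libraries). Per the methods and the submitters' processing notes, reads were trimmed with Trim Galore, aligned with BWA to mm10 (GRCm38.p6), filtered with SAMtools, merged with Picard, brought to the lowest coverage, and used for broad peaks with MACS2. Versions, peak threshold and the rule for combining samples are not given in the sources used here. The deposited list gives positions alone, with no count, signal or score. Starts were read as counted from 0 and are printed from 1. Unassigned per-library columns numbered 0, and the planned test of treated against control was not run. The authors' own comparison of each time with control was not used here.

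Coverage was computed with Python 3.11.15 and NumPy 2.4.6 over GENCODE M21 genes (the study used a later release). A gene had a site when one overlapped by at least 1 bp the 1 kb on either side of any transcript start. Bodies, gaps and clusters run from first to last base. Gaps of at least 100 kb between protein-coding genes, overlapping genes joined, served as background for the Irx gaps. Promoter sequences are from RefSeq. The named genes were the Irx genes, the noncoding genes inside each cluster with a site on a start, the 2 nearest protein-coding genes on each side, 11 other TALE genes (a further gene of the list is not reported here), and the Hox and Dlx clusters. The members and lists were chosen with earlier results of these data known. Gap ranks, distance bins, CpG-rich bins, joined domains, and the naming of Crnde, Pknox1 and other items outside that rule came after their values were seen. The functions gave 0 wrong answers in 4000 queries on 200 simulated lists. Neither cluster, with 100 kb added, shared an alignment of 10 kb or more with the 217 unplaced or alternative sequences (minimap2 2.31, longest 7279 bp).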

Additional observations from a re-analysis of the deposited data

How the results depend on the processing

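No paired analysis was possible because the table used here holds no values for single libraries. For the same reason leaving out a replicate, the comparison of treated with control cells and its replicate block were not run, and depth and peak threshold could not be varied. A value was taken as moved when it changed by more than 1.5 times. The number of Irx genes with a site at a start was 4 under most settings and 5 with sites closer than 5 kb joined, with 2 kb on either side of a start, or with RefSeq starts (the last chosen after seeing the data), Irx3 being the gene gained with RefSeq starts. Coverage of the Irx1-Irx2-Irx4 cluster moved from 8.93% to 15.1% with sites closer than 5 kb joined. Coverage of the Irx3-Irx5-Irx6 cluster moved from 25.2% to 50.9% with that joining and to 16.1% with sites of at least 1 kb. The median body coverage stayed between 96.8% and 100%. Of 20 values for single genes and gaps, examined after seeing the data, 8 moved higher with 5 kb joining, 1 moved lower with sites of at least 500 bp, 7 moved lower with sites of at least 1 kb, and 0 moved with 1 kb joining. Body coverage of Irx3 was 100% with 5 kb joining and 0% with sites of at least 1 kb, and its start windows went from 0% to 100% with that joining. Body coverage of Irx5 was 0% with sites of at least 500 bp.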
